A study of Mus musculus with 2 samples.

Results

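The ADAM, ADAMTS and ADAMTS-like genes were read in cultured Nestin+ stromal cells from bone marrow and from heart. All gene rows named Adam, Adamts or Adamtsl followed by a number and at most 1 letter were taken, which gave 57 of 49585 rows: 33 Adam, 19 Adamts and 5 Adamtsl genes. Both cultures came from Nestin-GFP transgenic C57BL/6 mice 7 days old, in which a green fluorescent reporter marks cells that use the Nestin gene, and both were at passage 10. Heart cells were grown in a mixed basal medium with 20 ng/ml EGF, 20 ng/ml bFGF, 4 ng/ml cardiotrophin-1, 1% N2 and 2% B27, and bone marrow cells in another growth medium described elsewhere, so tissue and medium cannot be told apart. Each tissue gave 1 RNA library, and the number of animals behind a culture is not given in the sources used here. No difference below therefore has a replicate check, and no p-value was computed.

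ADAM proteins are membrane-anchored and combine a metalloprotease domain with a disintegrin domain. The active ones cut the extracellular parts of growth factors, cytokine receptors and adhesion molecules off the cell surface, which is called shedding, while many others act in sperm or have lost the protease activity. ADAMTS proteins are secreted, carry thrombospondin type 1 repeats and cut matrix proteins such as procollagen, aggrecan and versican. ADAMTS-like proteins share those repeats but have no protease domain, so the name metalloprotease does not hold for them; several bind fibrillin microfibrils in the matrix.

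The ADAMTS proteases lay mostly toward heart and the abundant ADAMTS-like genes toward bone marrow. Levels are in RPKM, reads scaled by gene length and by library size, which can be compared between genes. The summed level of the 19 Adamts genes was 79.4 RPKM in bone marrow cells and 151 in heart cells. That of the 5 Adamtsl genes was 79.4 RPKM in bone marrow cells and 13.2 in heart cells, which was 27.3% of the summed level of all 57 members in bone marrow and 3.99% in heart. The summed level of the 33 Adam genes was closer, at 132 RPKM in bone marrow cells and 167 in heart cells.

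A gene was counted as higher in a library when log2((heart + 1)/(bone marrow + 1)) on RPKM reached 1 in either direction and its level was 5 RPKM or more in at least 1 library; every log2 ratio below is that quantity, in which low genes differ by less than in their plain ratio. Of the 17 members that reached 5 RPKM, 7 were higher in heart (41.2%), where the share over all 7659 genes at that level was 7.56%. Higher in bone marrow were 4 of the 17 (23.5%), where the share over all genes was 9.51%. The other 6 lay within 2-fold by this rule, though the plain ratio of Adamts12 was 2.09 toward bone marrow. The 7 toward heart were Adam17, Adam19, Adamts2, Adamts4, Adamts6, Adamts7 and Adamts10, and the 4 toward bone marrow were Adam12, Adamtsl3, Adamtsl4 and Adamtsl5. Over the 24 members that reached 1 RPKM in a library the median log2 ratio was 0.64, and over all 11355 genes at that level it was -0.11. Over the 17 members at or above 5 RPKM it was 0.22, against -0.15 over all genes at that level, and over all members above 0 it was 0.029. In bulk RNA, fewer cells that use a gene and less RNA per cell cannot be told apart.

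**Figure D1:**
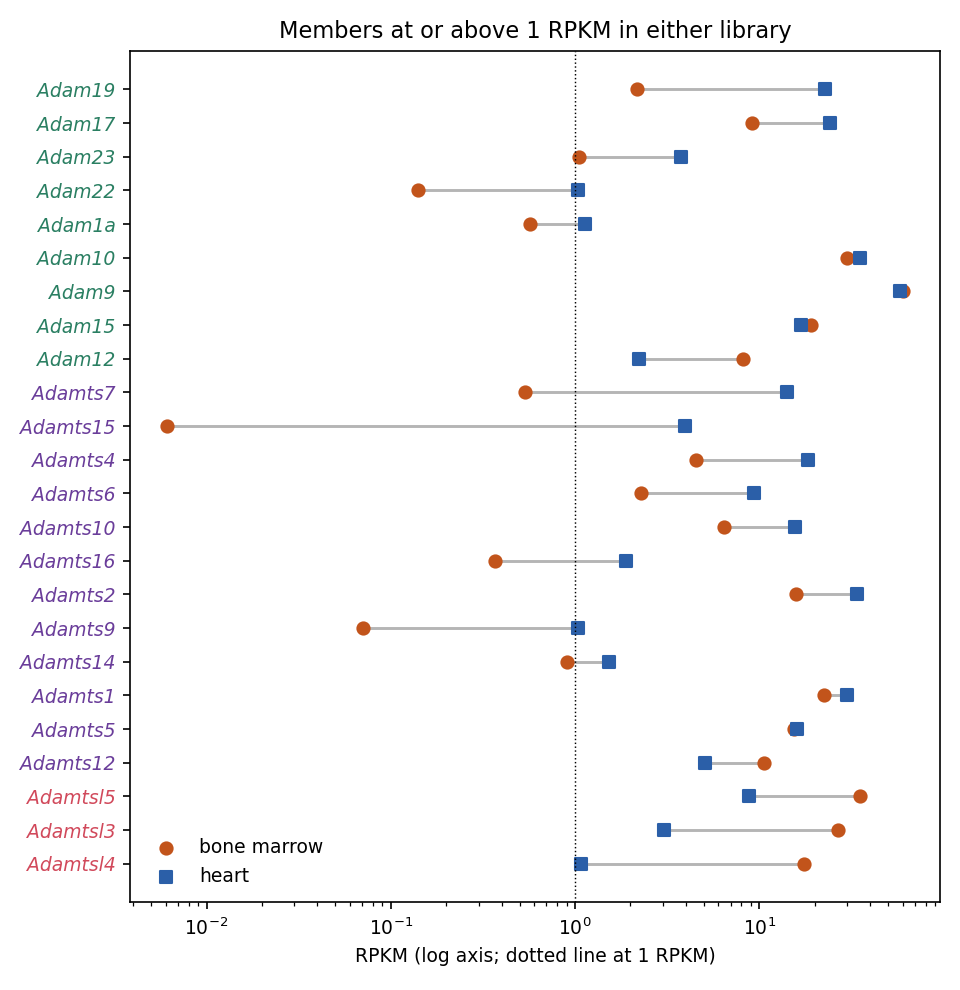
RPKM (log axis) of the 24 members that reached 1 RPKM in a library, with circles for the bone marrow library and squares for the heart library, 1 library each, joined by a line; gene names are coloured by subfamily. The 3 Adamtsl genes have their circle on the right and 11 of the 12 Adamts genes their square.

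**Figure D2:**
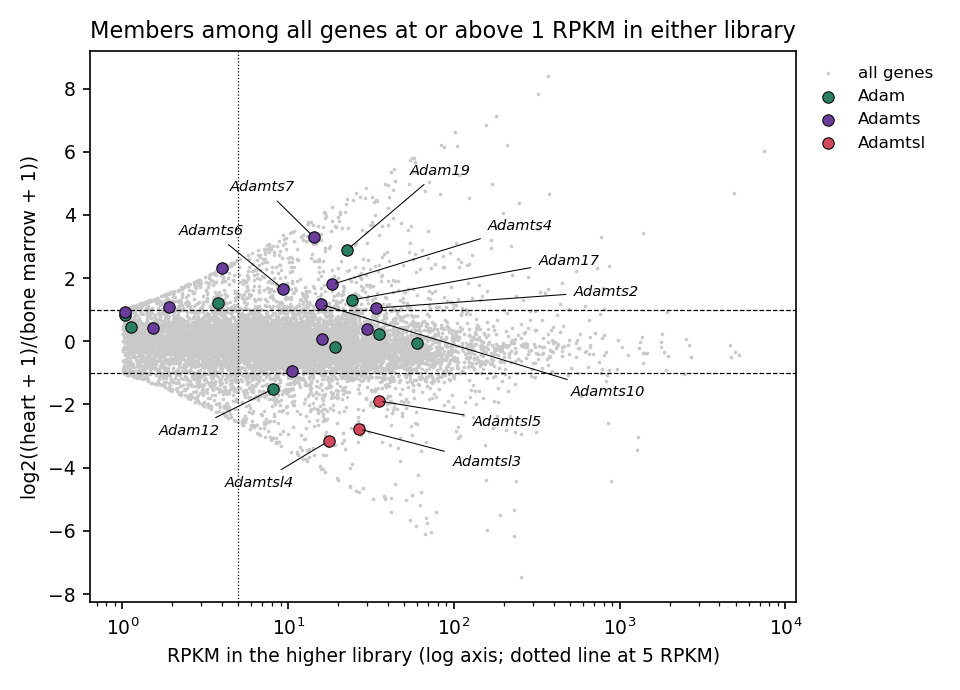
The log2 ratio of heart to bone marrow with 1 RPKM added to each, against the RPKM of the higher library (log axis), for all genes at or above 1 RPKM (grey) and for the members (coloured by subfamily). Dashed lines mark 2-fold and the dotted line 5 RPKM; the 11 named members lie past both.

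The reads behind the values were recovered from the RPKM steps, at totals of 53999963 for bone marrow and 64872683 for heart, and 95% intervals of a ratio below are exact conditional (Clopper-Pearson) intervals that cover counting error only. The stromal label held for the markers of the mesenchymal list, of which 8 of 10 reached 1 RPKM in bone marrow and 9 of 10 did in heart; the exceptions in bone marrow were Thy1 and Eng, at 0.0603 and 0.576 RPKM, and in heart Nt5e, at 0.225. Nes stood at 1.20 RPKM in bone marrow cells and 8.74 in heart cells. Of 6 leukocyte and macrophage markers only Lyz2 reached 1 RPKM, at 1.05 in bone marrow and 1.08 in heart. Summed over the list the levels were 1.58 and 1.75 RPKM. Ptprc, which encodes the leukocyte antigen CD45, was at 0.00469 RPKM in bone marrow and listed at 0 in heart. No endothelial, epithelial, cardiomyocyte or germ cell marker reached 1 RPKM, and of 4 neuronal markers Tubb3 did, at 26.4 RPKM in bone marrow cells and 3.80 in heart cells.

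Among the shedding ADAMs, Adam9 and Adam10 were abundant in both libraries, while Adam17 and Adam19 were higher in heart and Adam12 in bone marrow. Adam9, a widely expressed sheddase, was the highest of all 57 members in both, at 60.2 RPKM in bone marrow cells and 58.3 in heart cells, from 13381 and 15553 reads. Heart over bone marrow gave a ratio of 0.968 with an interval of 0.945 to 0.990, and its sign turned under each other scaling of the libraries (log2 ratios of 0.04 to 0.10 against -0.05). Adam10, which makes the first cut in activated Notch receptors, stood at 30.1 RPKM in bone marrow cells and 35.2 in heart cells, a ratio of 1.17 (1.14 to 1.21). Adam15 stood at 19.1 RPKM in bone marrow cells and 16.8 in heart cells. These 3 genes lay within 2-fold, unlike the next 3.

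Adam17, which encodes the TNF-alpha converting enzyme that also releases EGF receptor ligands, stood at 9.17 RPKM in bone marrow cells and 24.1 in heart cells, from 3543 and 11207 reads. The heart level was 2.63-fold higher (2.54 to 2.74). Adam19, known for the shedding of neuregulin and for its part in heart valve development, stood at 2.18 RPKM in bone marrow cells and 22.7 in heart cells, from 838 and 10496 reads. At 10.4-fold (9.72 to 11.2) it had the largest ratio of the shedding ADAMs. Adam12, a protease of mesenchymal and muscle precursor cells, went the other way, at 8.16 RPKM in bone marrow cells and 2.23 in heart cells, 3.66-fold higher in bone marrow (3.45 to 3.90). The 3 remaining shedding ADAMs were low in both libraries: Adam8 was at 0.287 RPKM in bone marrow cells and 0.319 in heart cells, Adam33 at 0.0790 and 0.0514, and Adam28 at no more than 0.00503. Adam17 shares 4.35% of its exon bases with Iah1 on the other strand, which stood at 29.4 RPKM in bone marrow cells and 24.1 in heart cells; whether strand was used in counting is not given, and the part of Iah1 reads in the Adam17 values was not tested.

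Of the protease-inactive ADAMs known from the nervous system, all 3 had larger values in heart and were low. Adam23, which encodes a neuronal integrin and LGI ligand, stood at 1.06 RPKM in bone marrow cells and 3.78 in heart cells. Adam22, which encodes the receptor of LGI1, stood at 0.141 RPKM in bone marrow cells and 1.04 in heart cells. Adam11 stood at 0.0915 RPKM in bone marrow cells and 0.519 in heart cells, from 28 and 191 reads. Their ratios were 3.58 (3.28 to 3.91), 7.38 (5.08 to 11.1) and 5.68 (3.81 to 8.77), but none reached 5 RPKM. The other neuronal markers than Tubb3 were at or below 0.0240 RPKM in both libraries.

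The 21 ADAM genes of sperm, testis and epididymis were nearly silent. Adam1a, which encodes a subunit of the sperm protein fertilin, was the only member of this group at or above 1 RPKM, at 0.572 RPKM in bone marrow cells and 1.13 in heart cells. Its GENCODE M21 model shares 63.7% of its exon bases with the overlapping model Gm42878 and 24.0% with Mapkapk5. Mapkapk5 stood at 10.8 RPKM in bone marrow cells and 6.82 in heart cells. The deposited Adam1a region has other coordinates than the M21 model, so these shares may not hold for it, and the Adam1a value is uncertain. Adam4, Adam5 and Adam32 had more reads in bone marrow than in heart: 67 and 33 for Adam4, 79 and 34 for Adam5, and 37 and 19 for Adam32. Adam4 shares 17.4% of its 50-base stretches with other genes, so it too is uncertain. Listed at 0 in both libraries were 12 genes: Adam2, Adam3, Adam6a, Adam6b, Adam18, Adam20, Adam25, Adam26a, Adam26b, Adam29, Adam34 and Adam39. A count of 0 allows up to 3 reads, which for these gene models is at most 0.0235 RPKM in bone marrow cells and 0.0196 in heart cells.

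Adamts2, the main protease that removes the amino-terminal propeptide of fibrillar procollagens, was the most abundant ADAMTS gene in heart. It stood at 15.9 RPKM in bone marrow cells and 34.0 in heart cells, with 8007 and 20603 reads behind these levels, and was 2.14-fold higher in heart (2.09 to 2.20). Its relative Adamts14 stood at 0.902 RPKM in bone marrow cells and 1.53 in heart cells, and Adamts3 had 0 bone marrow reads and 2 heart reads. Adamts2 thus held nearly the whole level of the procollagen proteases, whose summed level was 16.8 RPKM in bone marrow cells and 35.6 in heart cells.

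The 7 proteases that cut aggrecan and versican, called hyalectanases, divided into genes that were close to equal and genes that were higher in heart. Adamts1 stood at 22.4 RPKM in bone marrow cells and 29.9 in heart cells, a ratio of 1.33 (1.29 to 1.38). Adamts5, the main aggrecan protease of mouse cartilage, stood at 15.3 RPKM in bone marrow cells and 16.0 in heart cells, a ratio of 1.04 (1.01 to 1.08). Adamts1 and Adamts5 are neighbours on chromosome 16, on the same strand and 55.1 kb apart, and were both abundant and within 2-fold.

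Adamts4, the other well-known aggrecanase, stood at 4.56 RPKM in bone marrow cells and 18.3 in heart cells, with 1185 and 5723 reads, and was 4.02-fold higher in heart (3.78 to 4.28). Adamts15 stood at 0.00609 RPKM in bone marrow cells and 3.98 in heart cells. Its ratio of 653 rests on at least 1 read in bone marrow and 784 in heart, and with those reads the interval was 117 to 25809. Adamts9, a versican protease, stood at 0.0710 RPKM in bone marrow cells and 1.04 in heart cells, a ratio of 14.7 (11.0 to 20.1). Both were under the level of 5 RPKM needed for the count.

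Adamts8 starts 20.1 kb from Adamts15 on chromosome 9 and is read in the opposite direction. It had 1 bone marrow read and 14 heart reads, at 0.00401 and 0.0468 RPKM, a ratio of 11.7 (1.77 to 493). So this pair of neighbours stood far apart in level within the heart library. Adamts20 had 0 bone marrow reads and 2 heart reads.

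Adamts7 and Adamts12, which both cut the cartilage oligomeric matrix protein COMP, went opposite ways. Adamts7 stood at 0.537 RPKM in bone marrow cells and 14.2 in heart cells, from 182 and 5798 reads. The heart level was 26.5-fold higher (22.9 to 30.9), the largest ratio among the members at or above 5 RPKM. Tbc1d2b on the other strand, which shares 1.94% of the Adamts7 exon bases, stood at 9.02 RPKM in bone marrow cells and 26.5 in heart cells; its part in the Adamts7 values was not tested. Adamts12 stood at 10.6 RPKM in bone marrow cells and 5.08 in heart cells, a ratio of bone marrow to heart of 2.09 (1.98 to 2.21). With 1 RPKM added its log2 ratio was -0.93, just short of the 2-fold rule, and it was the only Adamts gene at or above 1 RPKM that lay toward bone marrow. Comp itself was low, at 1.67 RPKM in bone marrow cells and 0.0571 in heart cells.

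Adamts6 and Adamts10, a related pair that acts on fibrillin microfibrils, were both higher in heart. Adamts10 stood at 6.42 RPKM in bone marrow cells and 15.7 in heart cells, 2.45-fold higher (2.32 to 2.58). Adamts6 stood at 2.28 RPKM in bone marrow cells and 9.32 in heart cells, 4.09-fold higher (3.74 to 4.47). Of the less characterised proteases, Adamts16 stood at 0.366 RPKM in bone marrow cells and 1.90 in heart cells, a ratio of 5.20 (4.33 to 6.28), and Adamts17, Adamts18 and Adamts19 had at most 0.0119 RPKM in either library. Adamts13, the plasma protease that cuts von Willebrand factor, had 2 bone marrow reads and 0 heart reads.

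**Figure D3:**
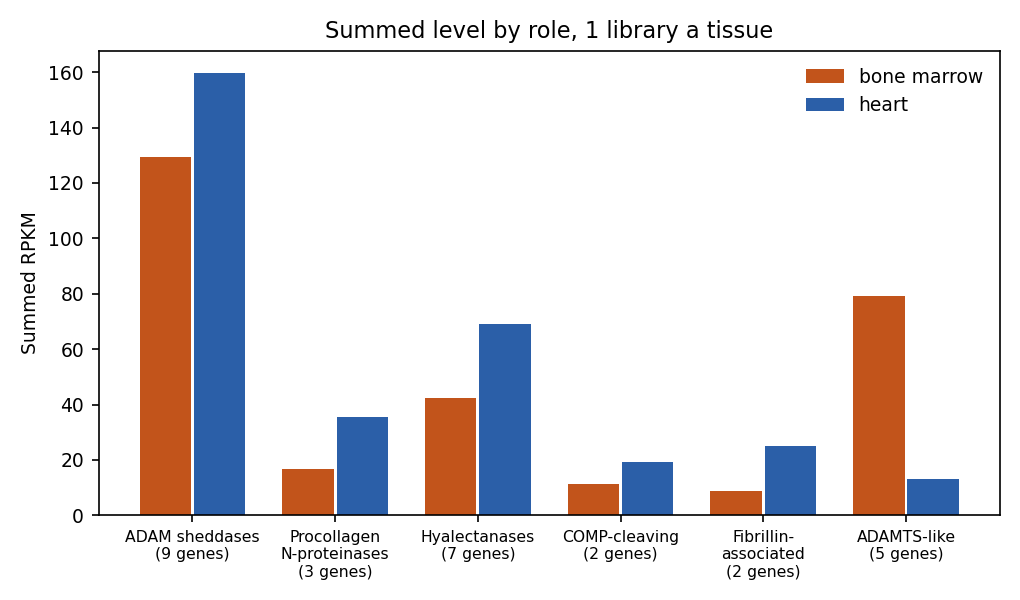
Summed RPKM of the members by role in the bone marrow and heart libraries, 1 library each, with no error bar because there are no replicates. The sum of the ADAMTS-like genes is 79.4 in bone marrow and 13.2 in heart, and that of the procollagen proteases 16.8 and 35.6.

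Bone marrow cells had more of all 3 ADAMTS-like genes that reached 1 RPKM. Adamtsl5, which encodes a fibrillin-binding matrix protein, was second of the 57 members in bone marrow and rank 13 in heart, at 35.1 and 8.76 RPKM. With 8950 and 2682 reads, the bone marrow level was 4.01-fold higher (3.84 to 4.19). Adamtsl3, also called punctin-2, stood at 26.7 RPKM in bone marrow cells and 3.05 in heart cells, from 11152 and 1530 reads, 8.76-fold higher (8.30 to 9.24). Adamtsl4, which binds fibrillin-1 and is needed for the fibres that hold the eye lens, stood at 17.5 RPKM in bone marrow cells and 1.07 in heart cells, from 3974 and 292 reads. At 16.3-fold (14.5 to 18.5) it had the largest ratio toward bone marrow among the members at or above 1 RPKM.

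The other pair of ADAMTS-like genes did not share this direction. Adamtsl1, or punctin-1, stood at 0.00435 RPKM in bone marrow cells and 0.243 in heart cells, from 3 and 201 reads, a ratio of 55.8 (18.8 to 273). Adamtsl2, known for geleophysic dysplasia, stood at 0.0579 RPKM in bone marrow cells and 0.0791 in heart cells, from 25 and 41 reads, and its interval of 0.811 to 2.34 included 1.

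The sequence before the start of the 3 bone marrow genes is shown because they lay together in direction on 3 chromosomes, beside that of Adamts2, which lay toward heart. Each is the 250 bases before the RefSeq start on GRCm38.p6, from a table that held 31 of the 57 members, 5′ to 3′ on the strand of the gene. Adamtsl3 is chr7:82335444-82335693 on the plus strand, Adamtsl4 chr3:95687918-95688167 on the minus strand, Adamtsl5 chr10:80348449-80348698 on the minus strand and Adamts2 chr11:50601835-50602084 on the plus strand. Capitals mark matches on either strand to any of 6 short motifs searched, and in these 4 windows all matches were to the GC box.
Adamtsl3: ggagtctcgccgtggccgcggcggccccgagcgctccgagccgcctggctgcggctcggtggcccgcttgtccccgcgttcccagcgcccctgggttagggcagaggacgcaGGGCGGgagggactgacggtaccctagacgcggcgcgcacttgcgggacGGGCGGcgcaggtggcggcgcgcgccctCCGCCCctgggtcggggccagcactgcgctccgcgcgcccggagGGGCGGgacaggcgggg
Adamtsl4: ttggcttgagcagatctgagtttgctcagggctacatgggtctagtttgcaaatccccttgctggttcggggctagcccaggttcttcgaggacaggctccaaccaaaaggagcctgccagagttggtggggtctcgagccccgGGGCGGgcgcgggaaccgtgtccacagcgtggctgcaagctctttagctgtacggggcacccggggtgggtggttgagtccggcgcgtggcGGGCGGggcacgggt
Adamtsl5: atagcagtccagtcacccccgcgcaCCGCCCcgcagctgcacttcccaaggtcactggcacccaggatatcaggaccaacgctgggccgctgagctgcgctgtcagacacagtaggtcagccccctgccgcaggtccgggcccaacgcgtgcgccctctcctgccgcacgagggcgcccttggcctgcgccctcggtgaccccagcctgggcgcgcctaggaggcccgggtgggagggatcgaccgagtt
Adamts2: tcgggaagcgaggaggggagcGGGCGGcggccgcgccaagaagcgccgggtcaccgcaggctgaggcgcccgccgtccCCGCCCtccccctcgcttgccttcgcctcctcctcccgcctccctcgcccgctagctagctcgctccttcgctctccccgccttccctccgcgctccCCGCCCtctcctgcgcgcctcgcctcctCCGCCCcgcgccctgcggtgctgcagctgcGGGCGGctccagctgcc

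The GC box, searched as GGGCGG, had 4 matches before Adamtsl3, 2 before Adamtsl4, 1 before Adamtsl5 and 5 before Adamts2. It was in 15 of the 31 member windows, and in 32.9% of 27025 windows of all genes in the table. The other motifs searched were the TATA box TATAAA, the CCAAT box CCAAT, the AP-1 motif TGANTCA, the TEAD motif GGAATG and the RUNX motif TGTGGT, in 13.0%, 34.5%, 6.87%, 12.6% and 14.2% of all windows; overlapping matches were each counted. None of these letters was in the 4 windows. GC content was 80.0% for Adamtsl3, 64.4% for Adamtsl4, 70.8% for Adamtsl5 and 78.0% for Adamts2. The median was 62.8% over the 31 member windows and 52.0% over all windows. Of the 3 genes higher in heart that had a window, Adamts2 and Adam17 held a GC box, with 5 and 1 matches. Adam19 held none and had a GC content of 50%. The RefSeq start behind the Adam19 window lies 1490 bases from the start of its deposited gene region, against 1 base for Adamts2 and 0 for Adam17. The Adam19 window may therefore not be the sequence before the start of the gene model read here. All 3 windows of genes higher in bone marrow held at least 1 GC box. The RefSeq start of Adamtsl5 lies 36 bases from the start of its deposited gene region, and those of Adamtsl3 and Adamtsl4 lie 0 bases from theirs.

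**Figure D4:**
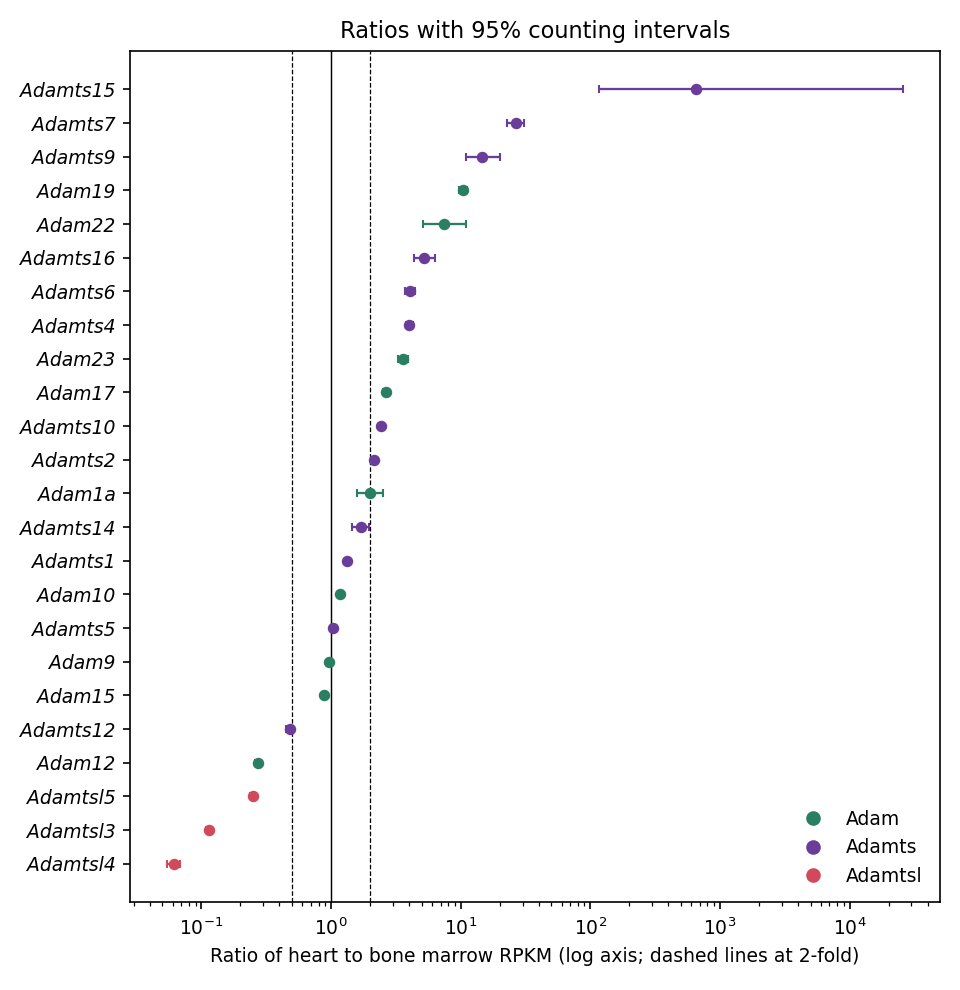
Ratio of heart to bone marrow RPKM (log axis) of the 24 members that reached 1 RPKM in a library, with exact 95% intervals for counting error in 1 library each; dashed lines mark 2-fold. The intervals of 12 members lie wholly above 2-fold toward heart and those of 4 wholly below 2-fold toward bone marrow.

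Counting error alone left the side of the 2-fold line undecided for Adamts12, with its bone marrow to heart interval of 1.98 to 2.21. The same held for Adam1a, with a heart to bone marrow interval of 1.58 to 2.50. Of the 24 members at or above 1 RPKM, the interval lay above 1 for 17 and below 1 for 7. Over all 7874 genes at that level whose reads came out whole these shares were 36.7% and 50.7%, so at this depth an interval that leaves out 1 is common. Of the 33 members below 1 RPKM, 20 had reads and an interval, which lay above 1 for Adam11, Adam21, Adamts8 and Adamtsl1 and below 1 for Adam4, Adam5 and Adam32. Over all 8373 genes below 1 RPKM with at least 1 read these shares were 13.8% and 11.1%. These 7 genes were picked out after their values were seen. Adam5 and Adam32 follow Adam9 on the same strand of chromosome 8, with a gap of 0.806 kb between Adam32 and Adam9, and stood at 0.467 and 0.229 RPKM in bone marrow against 60.2 for Adam9.

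Of the genes for inhibitors and clearance of these proteases, Timp1, Timp2, Timp3 and Lrp1 were abundant, and Timp3 alone passed the 2-fold rule. Timp3, the matrix-bound inhibitor of ADAM17 and of many ADAMTS proteases, stood at 585 RPKM in bone marrow cells and 175 in heart cells, a log2 ratio of -1.74. Of the 9 genes in the list 5 reached 5 RPKM, and Timp3 was 1 of these 5 (20%). The share of all genes higher in bone marrow was 9.51%. The lowest of the 5, Reck, stood at 6.52 RPKM in bone marrow cells and 7.10 in heart cells. Timp4, A2m, Pzp and Papln were at or below 0.0314 RPKM in both libraries. Timp1 stood at 327 RPKM in bone marrow cells and 295 in heart cells, and Timp2 at 299 and 385. Lrp1, which encodes an endocytic receptor that clears ADAMTS proteases, stood at 164 RPKM in bone marrow cells and 205 in heart cells. So Timp3 lay toward bone marrow while Adam17 and the Adamts genes that passed the 2-fold rule lay toward heart. The median over the 5 expressed genes of the list was 0.11.

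The genes that carry ADAM10 and ADAM17 to the surface or cut off their prodomains were mostly within 2-fold where they reached 5 RPKM. Of 7 of 13 at or above 5 RPKM, only Tspan5, a tetraspanin partner of ADAM10, was 2-fold apart (14.3%, toward heart). The shares over all genes were 7.56% toward heart and 9.51% toward bone marrow. Tspan5 stood at 2.23 RPKM in bone marrow cells and 7.24 in heart cells. Below 5 RPKM, larger log2 differences lay toward bone marrow: Pcsk6, a proprotein convertase gene, stood at 4.80 RPKM in bone marrow cells and 0.0178 in heart cells, a log2 ratio of -2.51. Tspan15, another ADAM10 partner gene, stood at 1.60 and 0.0128 RPKM, a log2 ratio of -1.36. Rhbdf2 and Tspan10, also below 5 RPKM, lay toward heart, with log2 ratios of 0.87 and 0.62. Rhbdf2 stood at 1.36 RPKM in bone marrow cells and 3.33 in heart cells, and Tspan10 at 0 and 0.539. All of these genes below 5 RPKM were named after their values were seen. Rhbdf1, which encodes the ADAM17 partner iRhom1, stood at 12.1 RPKM in bone marrow cells and 21.7 in heart cells. The ADAM10 partner genes Tspan14 and Tspan17 had log2 ratios of 0.22 and -0.35. The median of the 10 expressed genes of the list was 0.08.

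Among substrates, EGF family ligands were low and the receptors and matrix proteins differed both ways. Of 8 ligands, Hbegf alone reached 5 RPKM, at 9.20 RPKM in bone marrow cells and 1.20 in heart cells. Of 14 other ADAM substrates that reached 5 RPKM, 3 passed the 2-fold rule toward heart and 1 toward bone marrow, where the shares over all genes were 7.56% and 9.51%; the other 10 lay within it, and the median log2 ratio was 0.40 over the 18 at or above 1 RPKM. The adhesion molecule gene Vcam1 stood at 7.81 RPKM in bone marrow cells and 63.8 in heart cells, the chemokine gene Cxcl16 at 0.343 and 7.08, and Notch3 at 3.05 and 9.56, while the Notch ligand gene Jag1 stood at 17.3 and 6.92. Tnf, the substrate after which the enzyme of Adam17 is named, was listed at 0 in both libraries, and the genes of its receptors, Tnfrsf1a and Tnfrsf1b, which are shed by the same enzyme, stood at 42.1 and 11.5 RPKM in bone marrow and at 65.6 and 20.0 in heart.

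Of 7 ADAMTS substrates that reached 5 RPKM, 4 passed the 2-fold rule toward heart and 1 toward bone marrow, against the same shares over all genes. The median log2 ratio was 1.91 over these 7 and 0.03 over the 9 at or above 1 RPKM, and Col1a1 and Col1a2 had log2 ratios of -0.02 and 0.03. Vcan, which encodes versican, stood at 10.9 RPKM in bone marrow cells and 103 in heart cells, Col3a1 at 129 and 1388, and Fbn1, which encodes fibrillin-1, at 67.5 and 279. Col2a1, the cartilage collagen gene, stood at 8.71 RPKM in bone marrow cells and 0.0565 in heart cells. Acan, the gene of aggrecan, was at or below 0.00744 RPKM in both libraries, while the aggrecan proteases Adamts4 and Adamts5 were both present.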

How the data were processed

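One standard Illumina RNA library was made per tissue from 1 ug total RNA, per the labels' protocols. The authors' deposited values are RPKM, with no record of scaling between libraries. The sources used here give no aligner, counter or strand setting. The submitters' processing notes name mm8, but 45149 of 49585 rows (91.1%) have coordinates of GENCODE M21 gene models on GRCm38, which is used here.

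With exon-union lengths, 86.2% of 14255 genes above 0 in both libraries came out as whole reads in both within 0.02 reads. Of the 40 members above 0 in both, 28 did. For 12 others the smallest pair of whole reads that gives the ratio of both values and a whole length was used; it is a lower limit, so those intervals are at their widest (Adam1a, Adam12, Adam22, Adam23, Adam28, Adamts5, Adamts6, Adamts9, Adamts10, Adamts12, Adamts15 and Adamts19). In 1000 genes of known reads this pair was the true pair for 821, and the true pair was a whole multiple of it for 976. It was never above the true pair, but taking the smallest pair that fits makes this so, and it is no test of the method. For Adam7 no reads were recovered. Reads are not independent molecules, and no count model was fitted.

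Background shares are over 49492 symbols, with the row of the highest mean where a symbol has several. Members at or above 1 RPKM, and up to 4 genes of each pathway list with the largest log2 ratio at or above 5 RPKM, were named by rule, with Timp3. Comp, Acan, Tnf, Tnfrsf1a, Tnfrsf1b, Reck, Timp4, A2m, Pzp, Papln, Col1a1 and Col1a2 were added outside it with their values known. The same holds for Pcsk6, Tspan15, Rhbdf2 and Tspan10. The members and lists were chosen with earlier results of these data known. Alternatives were pseudocounts, floors, a 4-fold threshold, other scalings and summed rows. A planned search for the zinc-binding motif in member proteins was not run. The scripts ran on scipy 1.17.1, pandas 2.3.3, numpy 2.4.6 and matplotlib 3.10.9 under Python 3.11.15, and were tested on simulated data.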

Additional observations from a re-analysis of the deposited data

How the results depend on the processing

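The 7 members higher in heart and the 4 higher in bone marrow were the same genes under each of the 4 other scalings and with the rows of a symbol summed. With a pseudocount of 5 RPKM 4 were higher in heart and 3 in bone marrow (Adam12 left, at a log2 ratio of -0.86), with a floor of 20 RPKM 3 were higher in heart and 2 in bone marrow, and with a 4-fold threshold 2 and 2 (Adam19 and Adamts7, Adamtsl3 and Adamtsl4). With a floor of 1 RPKM or none, Adam23, Adamts15 and Adamts16 joined those higher in heart, which made 10, and with a pseudocount of 0.1 Adamts12 joined those higher in bone marrow, which made 5. The median log2 ratio was 0.64, between 0.24 and 0.98 under the other pseudocounts and scalings, 0.22 over the members at or above 5 RPKM and 0.029 over all members above 0, a set that adds members below 1 RPKM. The scalings add 0.09 to 0.15 to the log2 ratio of abundant genes. Under them Adam9 alone of the 24 members at or above 1 RPKM changed sign (4 of 4 scalings); pseudocounts cannot change a sign, and summed rows left these members' values as they were. No paired analysis was possible because each tissue has 1 library. Depth limits the members with few reads, such as Adamts3, Adamts13 and Adamts20, at 0 in 1 library and 2 reads in the other.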
